A study of Mus musculus with 6 samples.

Results

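The genes described here are 8 sensors and adaptors of foreign or misplaced nucleic acid in the cytosol, namely Ddx58, Ifih1, Dhx58, Eif2ak2, Mavs, Zbp1, Adar and Trim25. They were picked by name, as the rows of the expression table whose probe annotation gives 1 gene symbol and that symbol alone. All 8 were measured, each by 1 probe set, among 19937 genes tested. The cells were mouse haematopoietic stem and progenitor cells transformed by HoxA9 and Meis1, a laboratory model of acute myeloid leukaemia, grown with stem cell factor and the interleukins IL3 and IL6. UNC0638, which inhibits G9a and GLP, the enzymes encoded by Ehmt2 and Ehmt1 that methylate histone H3, was given for 5 days before 3 arrays, and the solvent DMSO for 5 days before the other 3. Both groups carry the introduced HoxA9 and Meis1. The labels give no dose and no strain, and they do not say that the numbered samples of a group were separate cultures, so the p-values rest on a spread between samples that may be only technical.

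Cytosolic sensing of RNA starts with the RIG-I-like helicases, which bind double-stranded RNA and signal through the adaptor MAVS on the outer mitochondrial membrane to the transcription factors that switch on interferon genes. Interferon in turn raises the transcripts of most of these sensors. PKR and ZBP1 couple such nucleic acid to a stop of translation and to cell death, while ADAR edits double-stranded RNA of the cell itself and keeps it from being sensed. In myeloid cells these sensors guard against virus and against transcripts of endogenous retroelements.

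After UNC0638 the transcripts of 2 RNA helicases and of the kinase PKR fell. Ddx58, which encodes RIG-I, was 1.76-fold lower than in DMSO cells, Eif2ak2, which encodes PKR, 1.73-fold lower, and Dhx58, which encodes LGP2, 1.64-fold lower. The other 5 genes did not pass the test, and 0 of the 8 rose. The smallest difference was that of Adar. The RNA came from bulk culture, in which fewer cells of a type and less RNA per cell cannot be told apart. Of all genes tested, 0.301% passed downward, 0.371% upward and 0.672% in either direction, by limma with Benjamini-Hochberg adjustment over all genes at a threshold of 0.05.

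To show what sequence the genes share at their starts, their RefSeq promoter windows (build GRCm38.p6, 250 bases before to 50 after an annotated start) were searched for the core of the interferon-stimulated response element (ISRE), which is 2 copies of GAAA set 2 bases apart, on both strands. The search used 6 of the 8 genes, for which a window was matched (Ddx58, Ifih1, Eif2ak2, Mavs, Adar and Trim25). The motif was present in 3 of these 6, those of Ddx58, Ifih1 and Eif2ak2. They are shown with the motif in capitals, and the window of Mavs is shown as one with no match. All are written in the direction of transcription, 5′ to 3′. The windows lie at chr4:40239776-40240075 on the minus strand (Ddx58), chr2:62646206-62646505 on the minus strand (Ifih1), chr17:78882523-78882822 on the minus strand (Eif2ak2) and chr2:131233813-131234112 on the plus strand (Mavs).
Ddx58: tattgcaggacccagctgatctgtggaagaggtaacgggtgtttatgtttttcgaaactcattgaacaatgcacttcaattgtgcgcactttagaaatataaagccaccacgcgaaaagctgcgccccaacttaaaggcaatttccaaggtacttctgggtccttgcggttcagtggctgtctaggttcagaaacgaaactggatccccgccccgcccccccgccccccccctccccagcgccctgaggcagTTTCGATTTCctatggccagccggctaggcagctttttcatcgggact
Ifih1: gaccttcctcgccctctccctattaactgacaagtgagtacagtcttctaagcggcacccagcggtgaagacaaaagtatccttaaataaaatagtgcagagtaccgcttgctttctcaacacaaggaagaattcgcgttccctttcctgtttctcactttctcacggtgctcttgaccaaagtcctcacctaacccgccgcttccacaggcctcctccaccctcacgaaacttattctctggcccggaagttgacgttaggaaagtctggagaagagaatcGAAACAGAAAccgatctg
Eif2ak2: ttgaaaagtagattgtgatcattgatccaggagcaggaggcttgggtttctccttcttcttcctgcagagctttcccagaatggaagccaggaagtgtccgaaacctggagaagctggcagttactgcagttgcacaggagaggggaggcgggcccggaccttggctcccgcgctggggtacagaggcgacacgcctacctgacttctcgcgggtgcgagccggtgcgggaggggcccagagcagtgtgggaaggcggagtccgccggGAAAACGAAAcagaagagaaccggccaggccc
Mavs: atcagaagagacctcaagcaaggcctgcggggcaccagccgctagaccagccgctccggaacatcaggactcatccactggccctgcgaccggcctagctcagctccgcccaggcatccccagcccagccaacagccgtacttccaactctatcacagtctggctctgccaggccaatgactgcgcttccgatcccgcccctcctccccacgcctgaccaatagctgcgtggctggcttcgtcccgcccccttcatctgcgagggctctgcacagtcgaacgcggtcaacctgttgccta
The match begins 2 bases after the annotated start in Ddx58, where it lies on the opposite strand as GAAATCGAAA. It begins 32 bases after the start in Ifih1 (GAAACAGAAA) and 18 bases after it in Eif2ak2 (GAAAACGAAA).

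Among the 15613 genes tested that have a window, 3.89% hold the ISRE core in at least 1 window, and 3.44% of all 32851 windows in the table do. It was present in 12 of the 49 genes with a window that were lower past the threshold (24.5%), of which Ddx58 and Eif2ak2 are 2, and in 2 of 62 that were higher (3.23%). The GAS motif TTCNNNGAA, the core bound by STAT dimers, was present in Eif2ak2 and in 1 of the 3 windows of Adar, and in 8.99% of genes tested. The comparison motif CACGTG was present in Trim25 and in 9.5% of genes tested. It too was more frequent in genes lower past the threshold (16.3%) than in those higher (4.84%). For GAS these shares were 14.3% and 11.3%. Each of the 3 motifs thus had a higher share among the lower genes than among the higher ones, though not to the same extent. Against genes tested, the share in lower genes was 24.5% to 3.89% for the ISRE core, 16.3% to 9.5% for CACGTG and 14.3% to 8.99% for GAS. These differences were not tested. No counted match overlapped another within these windows. Copies of GAAA at another spacing were not counted. GAAACGAAA is such a string, in the window of Ddx58 and in the Adar window that holds the GAS match. Strings 1 letter away from the core were not counted either, such as GAAAGTGAAC in that Adar window. A match is a string of letters in the window and not a measured binding site. Ifih1 holds a match and did not pass the test.

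The RIG-I-like helicases come first in the pathway. Ddx58 (RIG-I, which senses short double-stranded RNA with triphosphate ends) had intensities of 192, 171 and 162 on UNC0638 arrays 1 to 3, against 273, 347 and 343 on DMSO arrays 1 to 3. All 3 UNC0638 arrays lay below all 3 DMSO arrays. Its log2 difference was -0.81 (SE 0.11, 95% interval -1.07 to -0.56, limma adjusted p = 0.0247, probe set 10512067). Dhx58 (LGP2, a helicase of the same family without the signalling domains, which modulates the other 2) had 61.4, 79.0 and 65.4 on the UNC0638 arrays, against 103, 133 and 132 on the DMSO arrays. Again the groups did not overlap. Its log2 difference was -0.71 (SE 0.12, 95% interval -0.98 to -0.44, limma adjusted p = 0.0437, probe set 10391207).

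Ifih1 (MDA5, which senses long double-stranded RNA) had 314, 319 and 364 on the UNC0638 arrays, against 354, 437 and 505 on the DMSO arrays. UNC0638 3 lay above DMSO 1, so the groups overlapped. Its log2 difference of -0.35 did not pass (95% interval -0.65 to -0.06, limma adjusted p = 0.297, probe set 10483110). Whether the helicases differed in response was tested within each array, on pairs chosen after the values were seen. Relative to the DMSO mean, the log2 ratio of Ddx58 to Ifih1 was -0.26, -0.43 and -0.69 on the UNC0638 arrays, against 0.05, 0.08 and -0.13 on the DMSO arrays. The difference of -0.46 had an exact two-sided permutation p = 0.1, the smallest that 3 arrays against 3 can give, and 0.3 when adjusted over the 3 pairs. For Dhx58 against Ifih1 the difference was -0.36 (exact permutation p = 0.2), and for Ddx58 against Dhx58 it was -0.10 (exact permutation p = 0.4). At this number of arrays the test could not pass a threshold of 0.05, so it does not settle whether the 3 helicases responded alike. On the ratio of Ddx58 to Ifih1 all UNC0638 arrays lay below all DMSO arrays, and on the other ratios the groups overlapped.

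**Figure D1:**
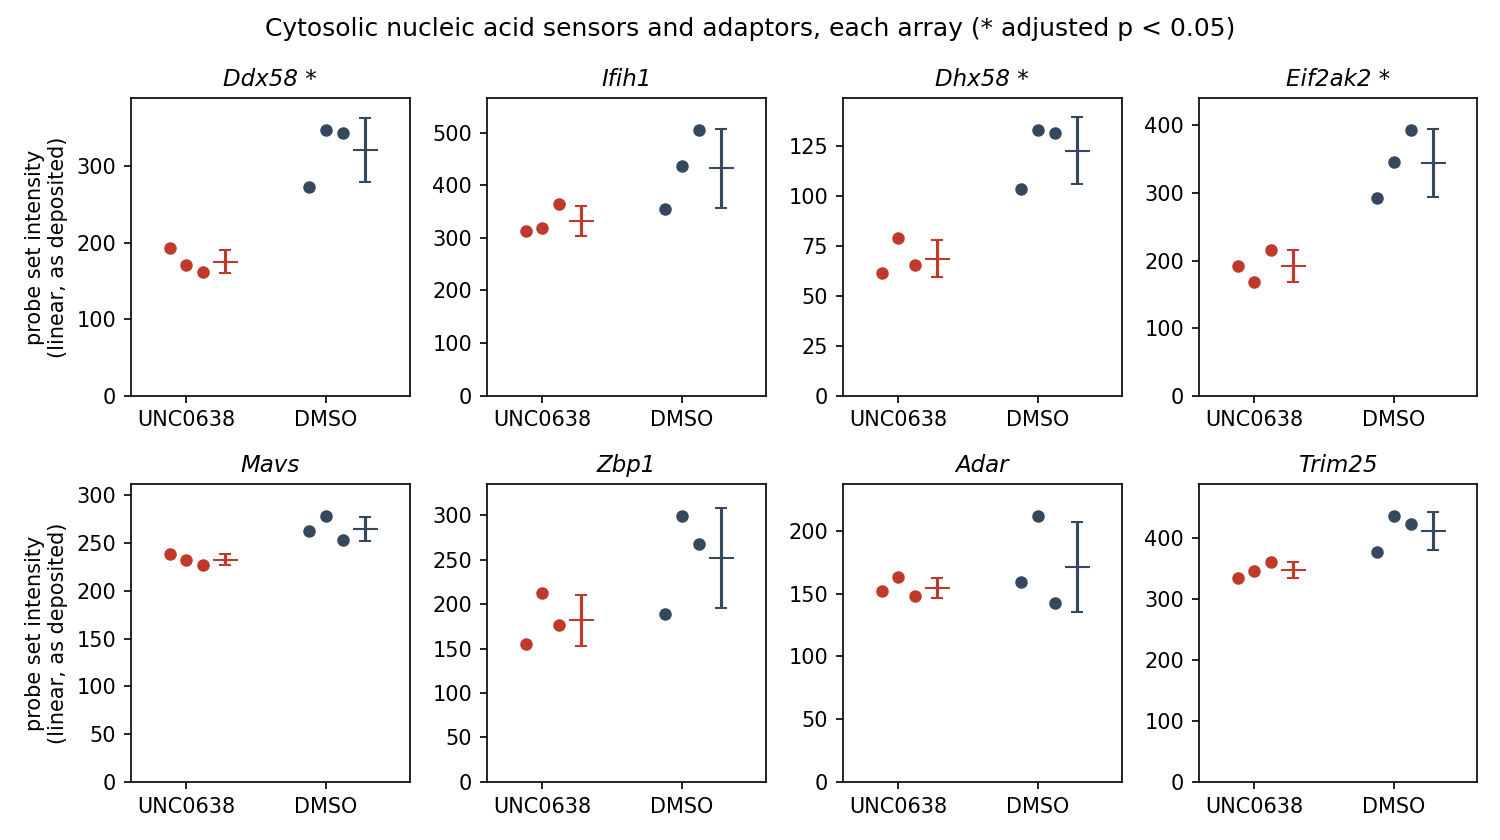
Intensity of the probe set of each of the 8 genes on each array (points, linear scale as deposited), with the mean and SD of the 3 arrays beside them; UNC0638 is on the left of each panel and DMSO on the right. For Ddx58, Dhx58 and Eif2ak2, marked with an asterisk, and for Mavs and Trim25 all UNC0638 arrays lie below all DMSO arrays.

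The adaptor and the ubiquitin ligase of the RIG-I branch differed less. Mavs had 238, 233 and 227 on the UNC0638 arrays, against 263, 278 and 253 on the DMSO arrays. The groups did not overlap, with means of 233 ± 5.77 in UNC0638 and 265 ± 12.7 in DMSO (SD, n = 3 each). Its log2 difference was -0.17 (95% interval -0.35 to -0.00056, limma adjusted p = 0.392, probe set 10476276). Trim25, a ubiquitin ligase that promotes RIG-I signalling, had 335, 346 and 361 on the UNC0638 arrays, against 377, 436 and 424 on the DMSO arrays. These groups did not overlap either. Its log2 difference was -0.23 (95% interval -0.43 to -0.04, limma adjusted p = 0.293, probe set 10380260). Neither gene passed the test.

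Of the effector sensors, Eif2ak2 (PKR, which binds double-stranded RNA and phosphorylates the translation factor eIF2alpha) had 192, 169 and 215 on the UNC0638 arrays, against 293, 346 and 393 on the DMSO arrays. The groups were apart, with means of 192 ± 23.4 in UNC0638 and 344 ± 50.1 in DMSO (SD, n = 3 each). Its log2 difference was -0.79 (SE 0.12, 95% interval -1.07 to -0.50, limma adjusted p = 0.0377, probe set 10452980). Zbp1, which binds left-handed nucleic acid and can start necroptosis through RIPK3, had 155, 212 and 177 on the UNC0638 arrays, against 189, 299 and 267 on the DMSO arrays. UNC0638 2 lay above DMSO 1. The log2 difference of -0.43 did not pass (95% interval -0.81 to -0.04, limma adjusted p = 0.336, probe set 10490150).

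Adar, the adenosine deaminase that converts adenosine to inosine in double-stranded RNA, had 152, 163 and 148 on the UNC0638 arrays, against 159, 212 and 143 on the DMSO arrays. DMSO 2 stood above the other 5 arrays, which lay close together. The log2 difference was -0.12 (95% interval -0.42 to 0.18, limma adjusted p = 0.797, probe set 10493565), and it turned to 0.03 without DMSO 2. Adar makes several isoforms, for which the 1 probe set gives a single value.

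**Figure D2:**
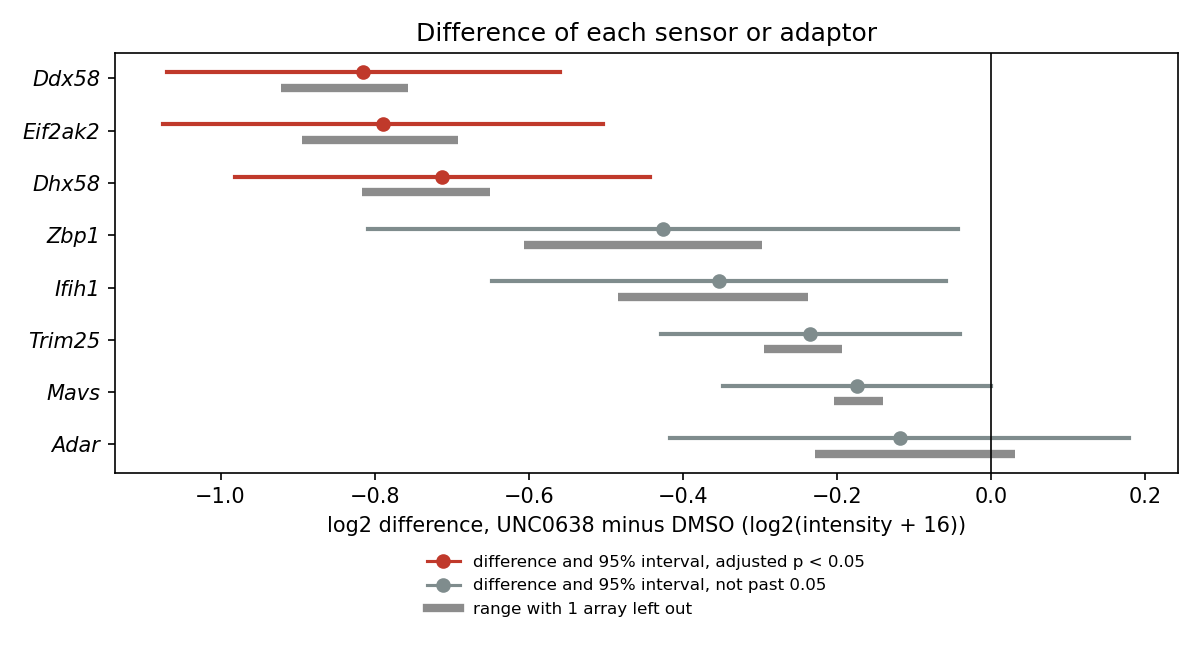
Log2 difference, UNC0638 minus DMSO, of each of the 8 genes (points) with its 95% interval (thin lines) and, below it, the range over fits with 1 array left out (grey bars). The intervals of Ddx58, Eif2ak2 and Dhx58 end at -0.56, -0.50 and -0.44, whereas that of Adar reaches 0.18.

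As a group, 3 of the 8 genes passed downward. All 8 log2 differences lay below 0, where 46.1% of all genes tested did, with a median of -0.39 against 0.01 over all genes. The UNC0638 arrays lay wholly below the DMSO arrays in 5 of the 8, where this held for 7.4% of all genes, and wholly above in 0, where it held for 9.59%. At an unadjusted limma p under 0.05, 7 of the 8 were lower, where 6.21% of all genes were. The genes were chosen with earlier results of these data known, so these counts are a description.

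Most calls were lost in fits with 1 array left out, which are weaker tests for every gene. Among all genes tested, 10 to 69 passed in such fits in place of 134. Without DMSO 1, 3 of the 8 genes passed, and without each of UNC0638 1, UNC0638 2, UNC0638 3, DMSO 2 and DMSO 3 in turn, 0 passed. Ddx58 ranged from -0.92 to -0.76 with limma adjusted p of 0.0193 without DMSO 1 and 0.0712 to 0.102 otherwise. Eif2ak2 ranged from -0.89 to -0.69, with 0.0344 without DMSO 1 and 0.0734 to 0.143 otherwise, and Dhx58 from -0.82 to -0.65, with 0.0349 and 0.0943 to 0.163. Over all 17 alternatives the adjusted p ran from 0.0103 to 0.102 for Ddx58, from 0.0164 to 0.143 for Eif2ak2 and from 0.0217 to 0.163 for Dhx58. With a pseudocount of 64 none of the 3 passed. Ddx58 also lost its limma call with the replicate number as a block (adjusted p = 0.0724), Eif2ak2 under quantile normalization (0.052) and Dhx58 when every single-symbol probe set was tested (0.0562).

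The spread between arrays was shared among the genes in part. DMSO 1 was the lowest DMSO array for 6 of the 8 genes, all but Mavs and Adar, whose lowest was DMSO 3. Averaged over the 8 genes and relative to the DMSO mean, DMSO arrays 1 to 3 stood at -0.18, 0.12 and 0.06, and UNC0638 arrays 1 to 3 at -0.49, -0.43 and -0.44. For all 8 genes the range of log2 values was wider over the 3 DMSO arrays than over the 3 UNC0638 arrays. How often such patterns hold among all genes tested was not counted, so they are not read as particular to the 8. Ifih1 and Eif2ak2 were both highest on DMSO 3, whereas the highest DMSO array was DMSO 2 for the other 6 genes.

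**Figure D3:**
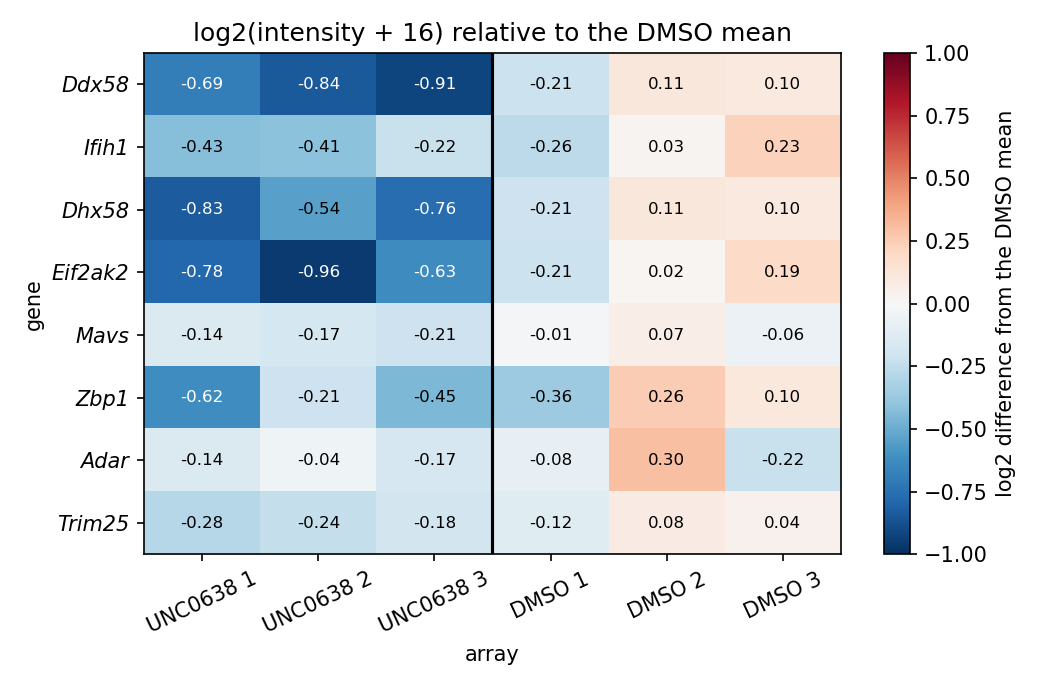
Log2(intensity + 16) of each gene on each array relative to the mean of the 3 DMSO arrays, with UNC0638 arrays left of the line and DMSO arrays right of it. DMSO 1 is below 0 for all 8 genes, and Ddx58 on UNC0638 3 and Eif2ak2 on UNC0638 2 have the lowest values, at -0.91 and -0.96.

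Genes that act with these sensors were taken from 10 lists. Of 145 genes in them, 130 were measured, 3 fell, 0 rose, and the median log2 difference was -0.05. Over all genes tested 0.301% fell and 0.371% rose past the threshold, and 46.1% had a log2 difference below 0. At an unadjusted limma p under 0.05 in either direction there were 33 (25.4%), where 12.7% of all genes tested were, and the counts at that p in each list are read against this share. The 3 that fell all belong to the oligoadenylate synthetases, which answer double-stranded RNA by making the activator of RNase L. Oasl2, a relative that is induced by interferon, had 56.5, 58.6 and 56.9 on the UNC0638 arrays, against 221, 262 and 451 on the DMSO arrays (log2 difference -2.10, limma adjusted p = 0.00864). Oas2 had 68.7, 80.2 and 60.3 against 107, 146 and 152 (-0.81, adjusted p = 0.0466), and Oas3 48.5, 37.4 and 48.4 against 70.6, 86.2 and 78.0 (-0.64, adjusted p = 0.0437), with UNC0638 arrays given first. The groups did not overlap in any of the 3, and UNC0638 arrays lay wholly below DMSO arrays in 7.4% of all genes. Of the 9 measured genes of that list 9 lay below 0, with a median of -0.31. These synthetases are similar in sequence, so probes could share signal between copies. Oas3 lost its call without each of the 6 arrays in turn, Oas2 without each but DMSO 1, and Oasl2 without UNC0638 1 (adjusted p = 0.0682).

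The signalling chain below the sensors held 0 genes past the threshold, and its shares at an unadjusted limma p under 0.05, of 10% to 14.3% in 3 lists, were near that of all genes. For 20 regulators of RIG-I and MAVS the median was -0.02, with 2 genes at an unadjusted limma p under 0.05, and the largest difference was that of C1qbp, a mitochondrial protein that dampens MAVS signalling (-0.47, adjusted p = 0.0921). For 16 genes downstream of MAVS the median was -0.01, with 2 genes at an unadjusted p under 0.05. Irf7, the interferon-induced transcription factor of interferon genes, had 48.5, 47.6 and 43.2 on the UNC0638 arrays, against 58.2, 82.7 and 84.5 on the DMSO arrays (-0.53, adjusted p = 0.11), and passed in 1 of 17 alternatives, without DMSO 1 (0.0338; range over alternatives 0.0338 to 0.298). The 14 other helicases tied to RNA sensing had a median of -0.08, with 12 below 0 and 2 at an unadjusted p under 0.05, and Ddx21, a nucleolar helicase, was at -0.29 (adjusted p = 0.248).

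Transcripts of the interferons themselves gave no call. For 13 measured type I and III interferon genes the median log2 difference was -0.01, with differences between -0.12 and 0.21 (Ifna9, adjusted p = 0.398) and 0 genes under an unadjusted limma p of 0.05. Median intensity of these genes was 34.4 in UNC0638 and 33.5 in DMSO, between the array lower quartiles (20.9 to 22.8) and medians, a range in which adding 16 before taking logs understates a change. Ifnb1 had means of 18.1 in UNC0638 and 19.4 in DMSO, below the lower quartiles, as were the means of Ifna4, Ifna11 and Ifna13. A change in these could be missed.

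Lists of other sensing routes held 0 genes past the threshold each. Their shares at an unadjusted limma p under 0.05 ran from 23.1% to 50%, against 12.7% of all genes, which is a description since the lists were chosen with results known. Cytosolic DNA sensing had a median of -0.21 over 15 genes, with 10 below 0 and 7 at an unadjusted limma p under 0.05, and its largest difference was that of Polr3f, a subunit of RNA polymerase III, at -0.46 (adjusted p = 0.351). Endosomal sensors had a median of 0.24 over 10 genes, with 6 above 0 and 5 at an unadjusted p under 0.05. The RNA-sensing receptor Tlr8 had 154, 206 and 175 on the UNC0638 arrays, against 128, 69.1 and 103 on the DMSO arrays (0.77, adjusted p = 0.123). Tlr13, named after its values were seen, was at 0.50 (adjusted p = 0.0596) and passed in 3 of the alternatives. Partners of ZBP1 in cell death had a median of 0.04 over 10 genes, with 3 at an unadjusted p under 0.05 (Nlrp3, an inflammasome sensor, 0.38, adjusted p = 0.132). Kinases and phosphatases around eIF2alpha, PKR left aside, had a median of -0.02 over 13 genes, with 3 at an unadjusted p under 0.05 (Eif2b5, an exchange factor subunit, -0.40, adjusted p = 0.195). Genes of RNA editing and modification other than Adar had a median of -0.06 over 11 genes, with 3 at an unadjusted p under 0.05 (Apobec1, a cytidine deaminase, 0.45, adjusted p = 0.0826).

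**Figure D4:**
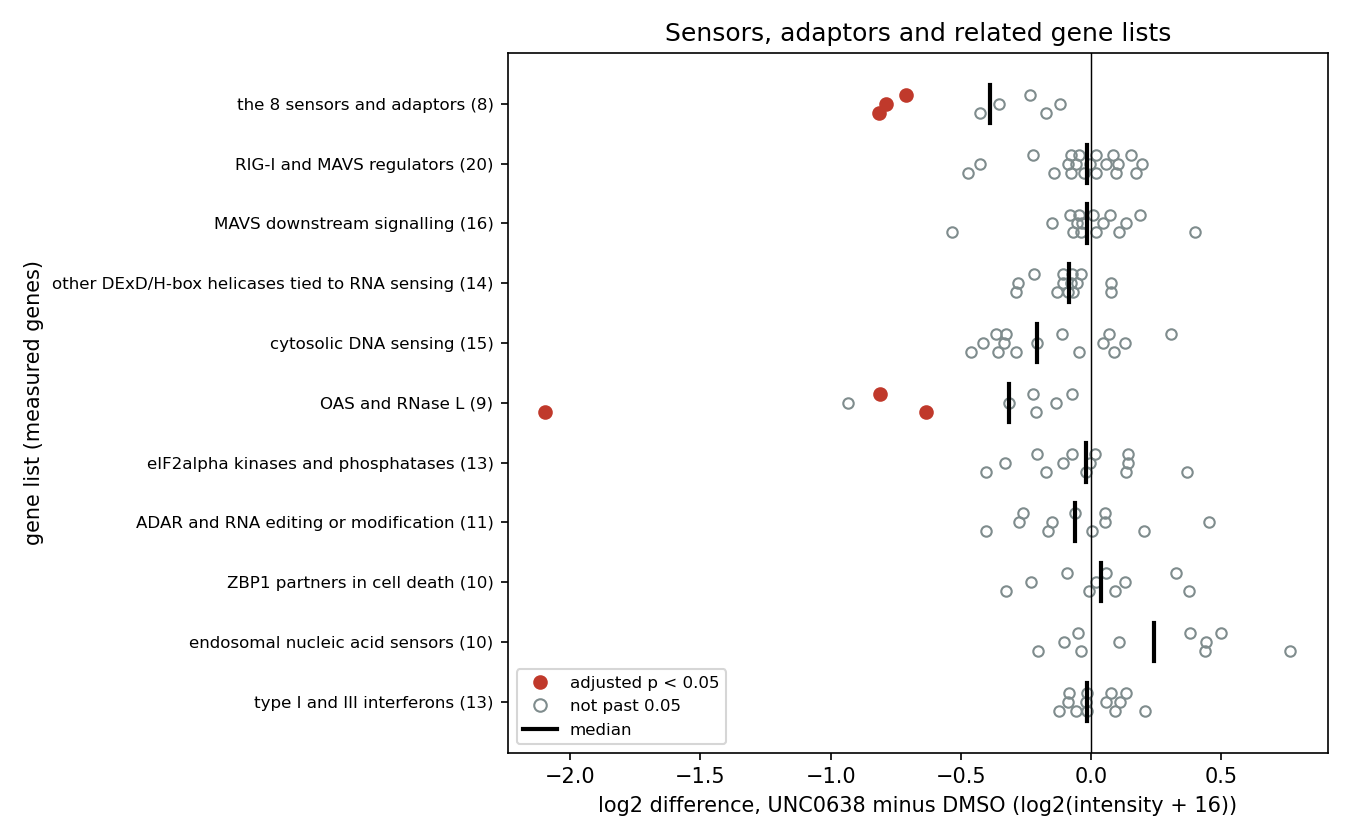
Log2 difference, UNC0638 minus DMSO, of the 8 sensors and adaptors and of each measured gene in the 10 related lists (circles; filled where the adjusted p was under 0.05), with the median of each list as a black bar. Filled circles are found in the top row and among the oligoadenylate synthetases alone; the medians of these 2 rows are -0.39 and -0.31.

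The genes outside the 8 whose log2 values ran most like the mean of the 8 over the 6 arrays were Ifit1, Slc16a1, Rangrf, Snora33 and Xaf1, with Pearson correlations of 0.989 to 0.992. These rest on 6 arrays in 2 groups and are a description. Ifit1, an interferon-induced RNA-binding protein, had 30.6, 29.1 and 30.2 on the UNC0638 arrays, against 66.8, 115 and 111 on the DMSO arrays (log2 difference -1.28, limma adjusted p = 0.0183). Xaf1, an interferon-induced gene tied to apoptosis, had 112, 104 and 119 against 177, 287 and 277 (-1.02, adjusted p = 0.0388), again with UNC0638 first. Both fell, and both had their lowest DMSO value on DMSO 1. So did the mean of the 8 genes, and both were picked for likeness to it, so these traits follow from the choice. Both also lost their call without each array but DMSO 1 and with a pseudocount of 64, and Xaf1 lost it under quantile normalization, in the test of every single-symbol probe set (limma adjusted p = 0.0515 in each) and with the replicate block (0.0669). The lactate transporter Slc16a1 (-0.36, adjusted p = 0.119), Rangrf (-0.49, adjusted p = 0.12) and the small nucleolar RNA Snora33 (-0.52, adjusted p = 0.11) did not pass. Rangrf did without DMSO 1 (limma adjusted p = 0.0479). It has 3 probe sets, and on their mean its log2 difference was -0.39 (limma adjusted p = 0.323).

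The transcripts of the inhibited enzymes did not pass the test either, at -0.25 for Ehmt2 (adjusted p = 0.293) and -0.04 for Ehmt1 (adjusted p = 0.92). Array medians were 52.7 to 54.9 in UNC0638 and 50.4 to 52.5 in DMSO, so all UNC0638 medians lay above all DMSO medians. Lower quartiles were apart in the same direction, and upper quartiles overlapped. With median centring the log2 difference of Ddx58 was -0.86 in place of -0.81. Arrays correlated pairwise at 0.98 to 0.987 over all probe sets. All 9 markers of transformed myeloid progenitors were measured above the lower quartiles, with 0 past the threshold and summed intensities of 19433 to 20493 in UNC0638 and 18337 to 19290.3 in DMSO. Itgam (0.46, limma adjusted p = 0.0709), Cd34 (0.27) and Ptprc (0.25) had all UNC0638 arrays above all DMSO arrays, and the other markers of that list overlapped. Plasmacytoid dendritic cells had summed marker intensities of 969 to 976 in UNC0638 and 1103 to 1385 in DMSO. Of their 6 markers 1 fell, Bst2 (-0.92, adjusted p = 0.0424), which is itself interferon-induced, while their defining markers Siglech (0.01) and Ccr9 (0.05) had intensities of 37.7 to 42.5 and 20.3 to 22.1 in UNC0638 and 36.2 to 44.6 and 17.4 to 21.2 in DMSO. Without Bst2, left out after its values were seen, the other 5 markers summed to 635 to 687 in UNC0638 and 590 to 624 in DMSO. Most of that sum was Tcf4, with 440 to 489 in UNC0638 and 416 to 446 in DMSO, where the groups overlapped. Log2 differences were 0.13 for Tcf4, 0.14 for Ly6d and 0.12 for Cox6a2, none past the threshold. The 6 macrophage markers summed to 2481 to 2695 in UNC0638 and 1755 to 2342 in DMSO, with 0 past the threshold. That list was split, since Adgre1 (0.63) and Csf1r (0.52) had all UNC0638 arrays above all DMSO arrays, Fcgr1 (-0.35) had all of them below, and Mertk (-0.26), C1qa and C1qb overlapped. The part of these markers in the results was not tested. Of the other markers, those measured for T and NK cells (4 of 5), B cells (2 of 3), erythroid cells (1 of 3), stroma (3 of 3) and endothelium (3 of 3) held 0 past the threshold.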

How the data were processed

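The authors deposited processed intensities of 34760 probe sets on 6 Affymetrix arrays (biotin-labelled cRNA from 6 ug of Trizol-extracted RNA, per the labels' protocols). How these were background-corrected, summarised and normalized is not given in the sources used here. The intensities are linear (2.74 to 19527), and prior processing can shrink the differences of dim genes. Probe sets with 1 symbol in the platform annotation (21640) were kept, the brightest per gene, giving 19937 genes. Values were transformed as log2(intensity + 16), so a fold is on that scale. The contrast of UNC0638 minus DMSO was fitted with limma 3.58.1 under R 4.3.3 (lmFit and eBayes on group alone, prior 4.47 degrees of freedom), with Benjamini-Hochberg adjustment over all genes, two-sided. The number of arrays limits the precision. The procedure was run on simulated data with known changes and independent noise. Such a run checks the calculation and cannot speak to effects that arrays share. The 8 genes, the lists and the alternatives were chosen with earlier results of these data known.

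Named were the 8 genes, Ehmt2, Ehmt1, in each list up to 3 falls and 3 rises past the threshold or otherwise the largest difference, and the 5 genes most like the mean of the 8. Promoter windows are RefSeq's, build GRCm38.p6. No coordinates of probes or genes are given, since the probe annotation names no build. Each of the 8 genes has 1 probe set, so a comparison of a gene's probe sets was not possible, and proteins were not analysed here. The alternatives were quantile normalization, median centring, pseudocounts of 1 and 64, leaving out the dimmest 40% of genes, the mean of a gene's probe sets, a test of every single-symbol probe set, a trended robust prior, array weights, a block on replicate number, a 0.01 threshold and each array left out in turn. Plots used Python 3.11.15 and matplotlib 3.10.9.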

Additional observations from a re-analysis of the deposited data

How the results depend on the processing

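Of the 8 sensors and adaptors 7 kept their direction in all 17 alternatives, and Adar was at 0.031 without DMSO 2, with a range of -0.23 to 0.031 over fits with 1 array left out. Ehmt1, which also turned without DMSO 2, ranged from -0.093 to 0.0061. Calls were less stable. With 1 array left out, 10 to 69 of all genes changed in place of 134, 0 to 3 of the 8 genes were lower in place of 3, and 0 to 3 related genes were lower in place of 3. Fewer arrays make those tests weaker. With a pseudocount of 64, 49 genes changed, 0 of the 8 genes and 0 related genes were lower. At the threshold of 0.01 these counts were 18, 0 and 1. A test of each single-symbol probe set left 1 related gene lower, Oasl2, and ended the call of Dhx58 (0.0562), and quantile normalization ended that of Eif2ak2 (0.052). Tlr13 was the 1 related gene higher, in place of 0, with quantile normalization, without the dimmest 40% of genes and with the trended robust prior. What made the calls differ between the alternatives was not tested. Median centring moved the share of rises among all calls to 43.5%, against 55.2% as reported.

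Same-numbered arrays did not deviate together in every pair (correlations of -0.066, 0.111 and 0.017 for numbers 1, 2 and 3), so the numbers were not taken as pairs. With the replicate block 73 genes changed, 2 of the 8 genes (Dhx58 and Eif2ak2) and 1 related gene (Oasl2) were lower. The arrays carry no measure of depth, and genes near the lower quartiles of 20.9 to 22.8 could hide a response.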
